A study of Mus musculus with 10 samples.

Results

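The interferon response genes described here are 44 mouse genes, picked by symbol out of the 47311 genes measured, that are switched on in many cell types when interferon signals. They include the sensors of viral nucleic acid, the transcription factors that carry the signal, and the effectors that block viral entry, translation and release. Sequencing of polyA RNA covered mouse marrow cells of the stem and progenitor phenotype, which lack lineage markers and carry Kit (Lin-Kit+). The cells were sorted by GFP, expanded in culture with IL3, IL6 and SCF, and measured in 10 libraries. By genotype they carried an empty vector (2 libraries), over-expressed WT (full-length) Asxl2 (2 libraries), or over-expressed Mutant1, Mutant2 or Mutant3 Asxl2 (2 libraries each). All groups grew in IMDM with fetal bovine serum and the same cytokines, and the labels give no strain, age, promoter or clone. ASXL2 is a chromatin protein that works with the histone deubiquitinase BAP1, and its gene is mutated in acute myeloid leukaemia with the t(8;21) translocation.

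Type I interferons bind the receptor pair IFNAR1 and IFNAR2, whose kinases JAK1 and TYK2 pass the signal on by phosphorylation. Phosphorylated STAT2 joins IRF9 in a complex that binds the interferon-stimulated response element (ISRE) in the promoters of response genes. Stem and progenitor cells are known to hold part of this program at a steady level without infection, and IFITM proteins, which hinder viral fusion with membranes, belong to that part.

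The names of the deposited data place 5 libraries in batch 1 and 5 in batch 2, each with 1 empty vector, 1 full-length and 3 mutant libraries. These names give 4 mutant libraries another mutant number than their labels and 2 of them another batch, so the mutants were pooled into 1 class of 6 and single mutants were not compared. Mutant values below are given in a fixed order, by label. For batch 1 this is Mutant1 replicate 1, Mutant1 replicate 2 and Mutant2 replicate 1, and for batch 2 it is Mutant2 replicate 2, Mutant3 replicate 1 and Mutant3 replicate 2. Whether both libraries of a group had cultures of their own is not stated, so p-values measure the spread between libraries, which may be technical. Estimated counts ranged from 52422686 to 79320702 per library. Asxl2 stood at 107 and 111 CPM with the empty vector and between 790 and 1892 CPM in the 8 libraries with a construct. The mast cell and basophil markers summed to between 61230 and 74310 TPM, with 14 of the 16 genes averaging at least 10 TPM, although the labels name the cells only by their starting phenotype. In bulk RNA, fewer cells of a type and less RNA per cell cannot be told apart.

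Promoters were searched for the ISRE as GAAA, any 2 bases and GAAA, and for the gamma-activated site (GAS) as TTCNNNGAA, on both strands, from 250 bases before to 50 bases after the RefSeq transcript start (GRCm38.p6). A match is a description of the letters and not a measured binding site. Of the 44 genes, 33 had a promoter entry, and Rtp4, Ifi27, Mx2, Oas2, Zbp1, Parp14, Dhx58, Parp9, Usp18, Ifi204 and Mx1 had none. The ISRE letters occurred in 17 of the 33 (51.5%), against 3.99% of all 27025 genes with a promoter entry. The GAS letters occurred in 9 of the 33 (27.3%), against 9.55% of all genes. A GAS match may overlap an ISRE match, as it does in Bst2. The 4 promoters below are shown because their genes followed 4 different patterns. Isg15 stood higher with full-length ASXL2, Bst2 stood lower in the mutants, Oas3 had the largest fall between the batches, and Ifit3 was nearly silent throughout. Each run gives the 200 bases before the start, 5′ to 3′ on the gene's own strand, with ISRE matches of either strand in capitals.
Isg15 (chr4:156200819-156201018, minus strand): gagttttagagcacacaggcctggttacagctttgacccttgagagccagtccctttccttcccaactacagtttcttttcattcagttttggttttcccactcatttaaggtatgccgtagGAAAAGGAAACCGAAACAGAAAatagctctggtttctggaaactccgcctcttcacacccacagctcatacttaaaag
Bst2 (chr8:71537473-71537672, minus strand): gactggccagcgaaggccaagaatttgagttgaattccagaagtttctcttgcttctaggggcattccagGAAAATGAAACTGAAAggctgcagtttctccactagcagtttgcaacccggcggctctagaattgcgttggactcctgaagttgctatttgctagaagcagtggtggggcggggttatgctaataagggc
Oas3 (chr5:120777660-120777859, minus strand): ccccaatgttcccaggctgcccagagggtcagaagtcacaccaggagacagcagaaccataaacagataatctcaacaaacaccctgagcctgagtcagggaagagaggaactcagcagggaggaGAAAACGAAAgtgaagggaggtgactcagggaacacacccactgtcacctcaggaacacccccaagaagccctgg
Ifit3 (chr19:34583329-34583528, plus strand): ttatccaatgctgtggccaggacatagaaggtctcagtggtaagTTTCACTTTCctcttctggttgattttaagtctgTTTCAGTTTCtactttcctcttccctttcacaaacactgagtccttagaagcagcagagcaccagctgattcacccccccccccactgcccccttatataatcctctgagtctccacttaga
In Isg15, 3 overlapping matches ran from 78 to 57 bases before the start, and in Bst2, 2 overlapping matches ran from 130 to 115 bases before it. Oas3 had 1 match, and Ifit3 had 2 separate matches that lie on the opposite strand. Mean levels of the 17 genes with ISRE letters ran from 0.00947 to 1300.0 TPM, and 6 of them averaged under 1 TPM. Among the 16 without these letters, which include Ifitm1 and Lgals3bp, 5 averaged under 1 TPM. Lgals3bp had no GAS letters either.

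Levels were compared between genes in TPM, the deposited share of each transcript in its library, which is scaled by transcript length. The members were dominated by the IFITM family. Ifitm1 was highest, with 8820 TPM in empty vector replicate 1 and 9426 TPM in replicate 2. It stood at 7893 and 8776 TPM with full-length ASXL2, and the mutant libraries ranged from 8815 to 10226 TPM, with a median of 9837 TPM. On the TPM scale both full-length libraries lay below the other 8 libraries, while the empty vector libraries lay within the range of the mutants, and no comparison of Ifitm1 between classes was called. Ifitm2 ranged from 1210 to 1376 TPM and Ifitm3 from 162 to 266 TPM over the 10 libraries. Together these 3 genes made up between 94.49 and 96.21% of the members' summed TPM in each library. Next came Bst2, which encodes the tether that holds budding virus at the membrane, from 84.2 to 148 TPM. It was followed by Ifi27, from 70.4 to 119 TPM.

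Of the 44 genes, 4 averaged at least 100 TPM, 14 lay between 10 and 100 TPM, 9 between 1 and 10 TPM and 17 under 1 TPM. The signalling parts of the pathway were among the middle levels. Irf9 averaged 27.7 TPM, Irf1, a factor also induced by interferon gamma, 26.7 TPM, and Stat2 19.4 TPM. Irf7, the factor that amplifies interferon production, averaged 2.34 TPM. Of the cytosolic RNA sensors, Ddx58 (RIG-I) averaged 14.7 TPM, its regulator Dhx58 (LGP2) 1.92 TPM and Ifih1 (MDA5) 1.21 TPM. Usp18, which removes ISG15 from proteins and damps the receptor, averaged 24.4 TPM, while Isg15 itself averaged 3.49 TPM. The RNA-dependent kinase Eif2ak2 (PKR) and the RNA editing enzyme Adar averaged 15.0 and 18.7 TPM.

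At the bottom lay 7 genes that averaged under 0.1 TPM, which were Ifit1, Ifit3, Ifit3b, Oas2, Mx2, Rtp4 and Irf8. Ifit1, whose product blocks translation of viral RNA, ranged from 0.0241 to 0.0930 TPM, with between 3 and 15 counts in a library. Its relative Ifit3 did not exceed 0.0716 TPM and was at 0 counts in 4 libraries, and Ifit3b was at 0 in 5. Oas2 was at 0 in 3 libraries and Irf8, a monocyte and dendritic cell factor, in 3. Rsad2 (viperin) averaged 0.541 TPM and Mx1, a GTPase that traps viral nucleoproteins, 0.351 TPM. Near-identical copies share reads, so the split between Ifit3 and Ifit3b, and the values of Oas1a, Ifi204 and the Gbp genes, are uncertain. On the same strand, Irf8 overlaps Gm20388, which reached 19.8 TPM, and Irf9 overlaps Rnf31, which reached 28.0 TPM. How reads were divided between the genes of these pairs was not tested.

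**Figure D1:**
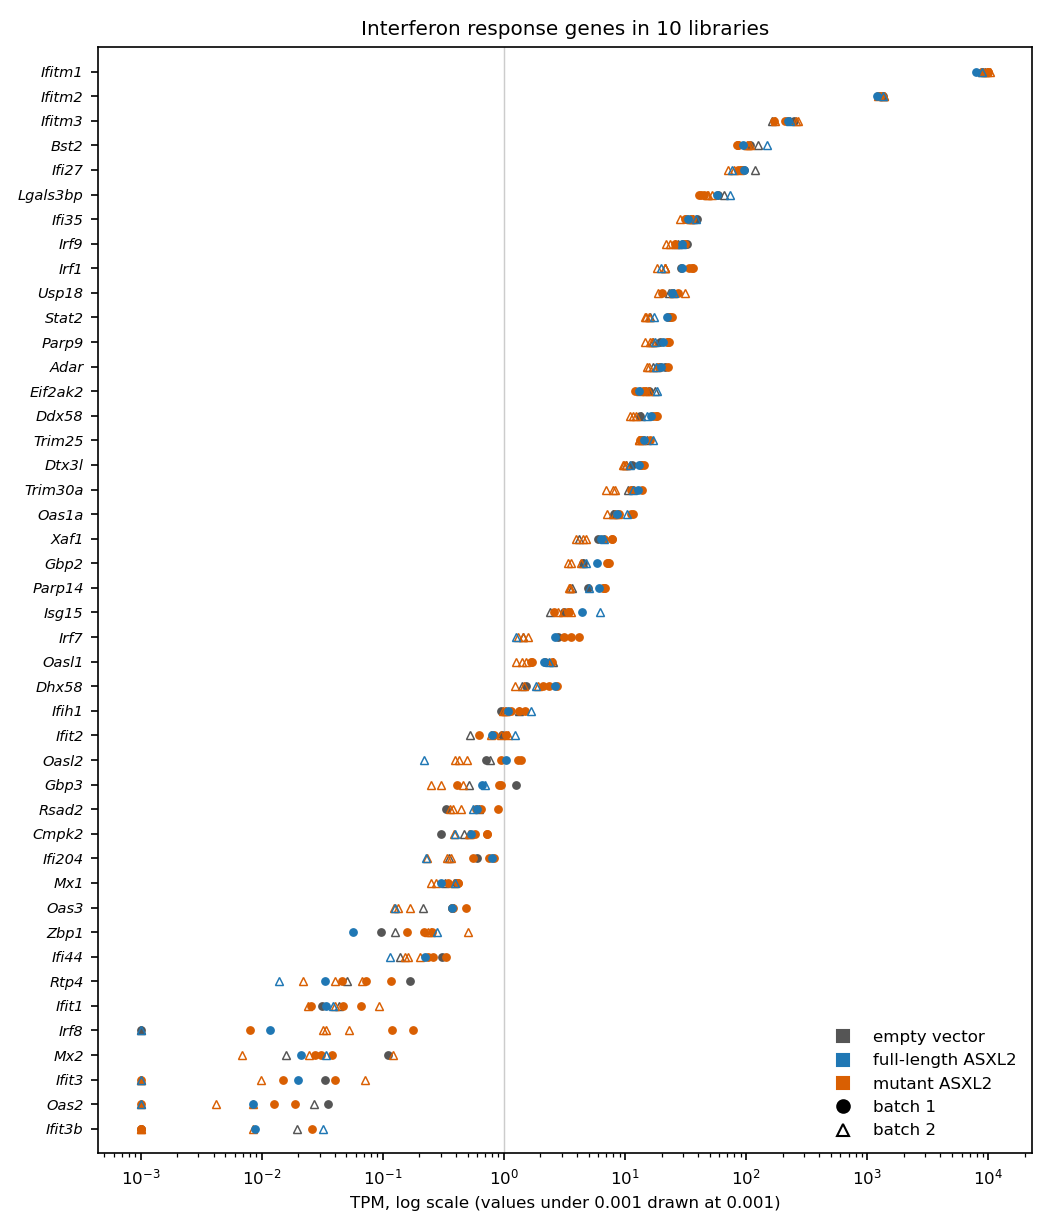
TPM of the 44 interferon response genes on a log axis, 1 point per library, coloured by class and shaped by batch, with values under 0.001 drawn at 0.001. Ifitm1, Ifitm2 and Ifitm3 stand at the top, and 7 genes average under 0.1 TPM.

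Between classes, CPM (counts scaled to a common library size, with TMM factors) and log2 fold changes were used. Genes were tested with edgeR's quasi-likelihood test over all 10 libraries, with a block for the batch in the deposited names and Benjamini-Hochberg adjustment over the 17810 genes that passed a filter on low counts. A gene is called at an adjusted p under 0.05. The filter kept 37 of the 44 members and left out Ifit1, Ifit3, Ifit3b, Oas2, Mx2, Rtp4 and Irf8, so counts of calls cover the 37.

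Full-length ASXL2 against the empty vector asks what over-expression of the intact protein does. Dhx58 and Isg15 rose with full-length ASXL2, and no tested member was called lower. Isg15 stood at 1.32 and 1.15 CPM with the empty vector (batch 1, batch 2) and at 2.06 and 2.79 CPM with full-length ASXL2. Dhx58 stood at 1.88 and 1.71 CPM with the empty vector and at 3.47 and 2.70 CPM with full-length ASXL2. Both full-length libraries lay above both empty vector libraries in both genes. The fold was 1.94 for Isg15 (log2 fold change 0.96 ± 0.25, SE, edgeR adjusted p = 0.0492) and 1.71 for Dhx58 (0.77 ± 0.17, SE, edgeR adjusted p = 0.0237). These 2 calls are 5.41% of the 37 tested members, against 5.07% of all genes tested (3.85% higher and 1.22% lower). Both rest on few reads, from 70 to 79 counts of Isg15 and from 100 to 117 counts of Dhx58 in the empty vector libraries. Neither call held without the batch block (edgeR adjusted p = 0.236 for Isg15 and 0.184 for Dhx58), in TPM with limma, or with any 1 of the 4 empty vector and full-length libraries left out. Isg15 was also lost without 1 of 4 mutant libraries (Mutant1 replicate 2, Mutant2 replicate 1, Mutant2 replicate 2 and Mutant3 replicate 2, edgeR adjusted p from 0.0634 to 0.0801). Without full-length replicate 1 Ifi27 passed instead, at a log2 fold change of -0.622. Without empty vector replicate 2 Ddx58, Dtx3l and Parp14 did, at 0.456, 0.352 and 0.599. Each of these fits leaves 1 library in a class.

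The other 35 tested members were not called. Of the 37, 25 had a log2 fold change above 0 and 12 below, with a median of 0.11, against a median of -0.0194 over all genes tested, of which 46.2% lay above 0. Leaving out empty vector replicate 1 brought the members' median to 0.012, and leaving out full-length replicate 1 brought it to 0.035. Parp14, an ADP-ribosyltransferase, was at 25.7 and 21.7 CPM with the empty vector and at 34.9 and 27.7 CPM with full-length ASXL2. Its log2 fold change of 0.39 ± 0.12 (SE) did not pass (edgeR adjusted p = 0.0989, and 0.0391 with DESeq2). Of the sensors, Ddx58 stood at 0.23 ± 0.10 (SE) and Ifih1 at 0.35 ± 0.22 (SE), and neither passed. The factors Stat2 (0.040 ± 0.049, SE) and Irf9 (-0.0030 ± 0.055, SE) had log2 fold changes smaller than their SE. Within both batches, 15 members were higher in the full-length than in the empty vector library (40.5% of the 37, against 30.0% of all genes tested) and 4 were lower (10.8%, against 33.0%).

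The pooled mutants were compared with the same empty vector libraries. Lgals3bp and Bst2 fell in the mutants and Dhx58 rose. Lgals3bp encodes a secreted glycoprotein that binds galectins. It stood at 87.5 CPM with the empty vector and at 66.4, 65.9 and 66.3 CPM in the mutants of batch 1. In batch 2 it stood at 114 CPM with the empty vector and at 98.6, 92.4 and 85.8 CPM in the mutants. Every mutant library lay below the empty vector library of its own batch, while the highest mutant library of batch 2 lay above the empty vector library of batch 1. The log2 fold change was -0.36 ± 0.057 (SE, fold 0.781, edgeR adjusted p = 0.00335).

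Bst2 stood at 45.8 CPM with the empty vector and at 36.4, 37.0 and 38.8 CPM in the mutants of batch 1. In batch 2 it stood at 60.3 CPM with the empty vector and at 54.7, 54.7 and 52.8 CPM in the mutants. Here too every mutant library lay below the empty vector of its batch, and the difference between the batches was larger than that between the classes. The log2 fold change was -0.23 ± 0.048 (SE, fold 0.856, edgeR adjusted p = 0.0130). Dhx58 stood at 2.38, 2.95 and 2.69 CPM in the mutants of batch 1 and at 2.52, 2.38 and 2.38 CPM in those of batch 2. These values lie above both empty vector libraries, with a log2 fold change of 0.51 ± 0.14 (SE, fold 1.42, edgeR adjusted p = 0.0443). In TPM 1 mutant library of batch 2, at 1.24 TPM, lay below the empty vector libraries at 1.51 and 1.41 TPM, and limma did not call the gene.

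**Figure D2:**
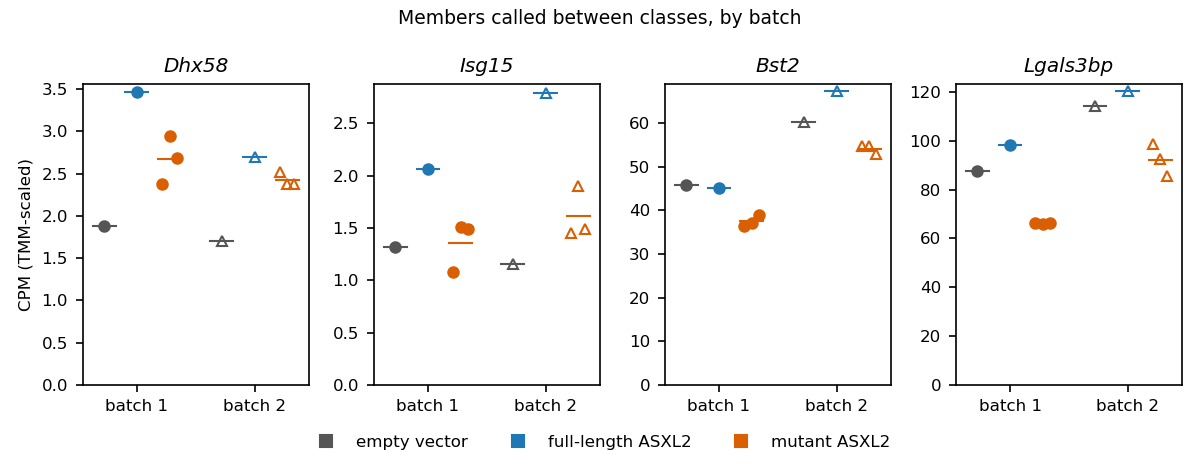
CPM (TMM-scaled, axis from 0) of the 4 members called between classes, 1 point per library and a bar at the class mean within each batch. Bst2 and Lgals3bp are lower in the mutants than in the empty vector library of the same batch, and Dhx58 and Isg15 are highest in the full-length libraries of each batch.

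These 3 calls are 8.11% of the 37 tested members, against 10.8% of all genes tested (6.82% higher and 3.99% lower). The median log2 fold change of the 37 was 0.13, with 26 above 0 and 11 below, against a median of -0.00578 over all genes. Without empty vector replicate 1 the median of the members was -0.028. Without overlap in either batch, 4 members were higher in the mutants (10.8%, against 16.6% of all genes tested) and 6 were lower (16.2%, against 15.1%). Dtx3l, a ubiquitin ligase that pairs with PARP9, came near the threshold at 0.20 ± 0.061 (SE, edgeR adjusted p = 0.0587). Zbp1, a sensor of unusual nucleic acid forms, had the largest log2 fold change at 1.07 ± 0.49 (SE) but only between 4 and 23 counts a library, and it did not pass (edgeR adjusted p = 0.199). No call held without the batch block (edgeR adjusted p = 0.564 for Lgals3bp, 0.870 for Bst2 and 0.261 for Dhx58). Without empty vector replicate 1 none of the 3 calls held, at log2 fold changes of -0.337 for Lgals3bp, -0.155 for Bst2 and 0.476 for Dhx58. Without empty vector replicate 2 these log2 fold changes were -0.366, -0.285 and 0.545. Each of these fits leaves 1 empty vector library. Dhx58 was lost without the filter on low counts (edgeR adjusted p = 0.0872) and without any 1 library other than Mutant1 replicate 1 (0.0624 to 0.313).

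Mutants against full-length ASXL2 asks whether the altered proteins differ from the intact one. Lgals3bp and Bst2 were lower in the mutants. The full-length libraries held 98.4 and 120 CPM of Lgals3bp (batch 1, batch 2) and 45.2 and 67.3 CPM of Bst2. All 6 mutant libraries lay below the full-length library of their batch in both genes. The log2 fold change was -0.48 ± 0.057 for Lgals3bp (SE, fold 0.718, edgeR adjusted p = 0.00816) and -0.29 ± 0.047 for Bst2 (SE, fold 0.816, edgeR adjusted p = 0.0344). These are 5.41% of the 37 tested members, against 0.399% of all genes tested (0.185% higher and 0.213% lower). Neither call held without the batch block (edgeR adjusted p = 1.0 for each) or without either full-length library (0.0656 and 0.0762 for Lgals3bp, 0.0818 and 0.785 for Bst2). Bst2 was also lost without any 1 mutant library other than Mutant3 replicate 1 (edgeR adjusted p from 0.0501 to 0.0796).

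Isg15 stood at 1.08, 1.51 and 1.49 CPM in the mutants of batch 1 and at 1.45, 1.90 and 1.49 CPM in those of batch 2. The mutants lay below the full-length library of their batch, and their log2 fold change against it was -0.70 ± 0.19 (SE), which did not pass (edgeR adjusted p = 0.157, and 0.0435 with DESeq2). Against the empty vector it was 0.26 ± 0.21 (SE, edgeR adjusted p = 0.484). Dhx58 was 0.27 lower on the log2 scale in the mutants than with full-length ASXL2 (-0.27 ± 0.13, SE, edgeR adjusted p = 0.488). Ifitm1 was higher in every mutant library than in the full-length library of its batch, at 0.24 ± 0.076 (SE, edgeR adjusted p = 0.231). Both directions occurred among the 37, with 15 above 0, 22 below and a median of -0.025, against 0.00916 over all genes. Without full-length replicate 1 this median was 0.010. Without overlap in either batch, 2 members were higher in the mutants (5.41%, against 11.1% of all genes tested) and 8 were lower (21.6%, against 9.99%). These 3 comparisons share libraries, so their calls are not independent of each other.

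**Figure D3:**
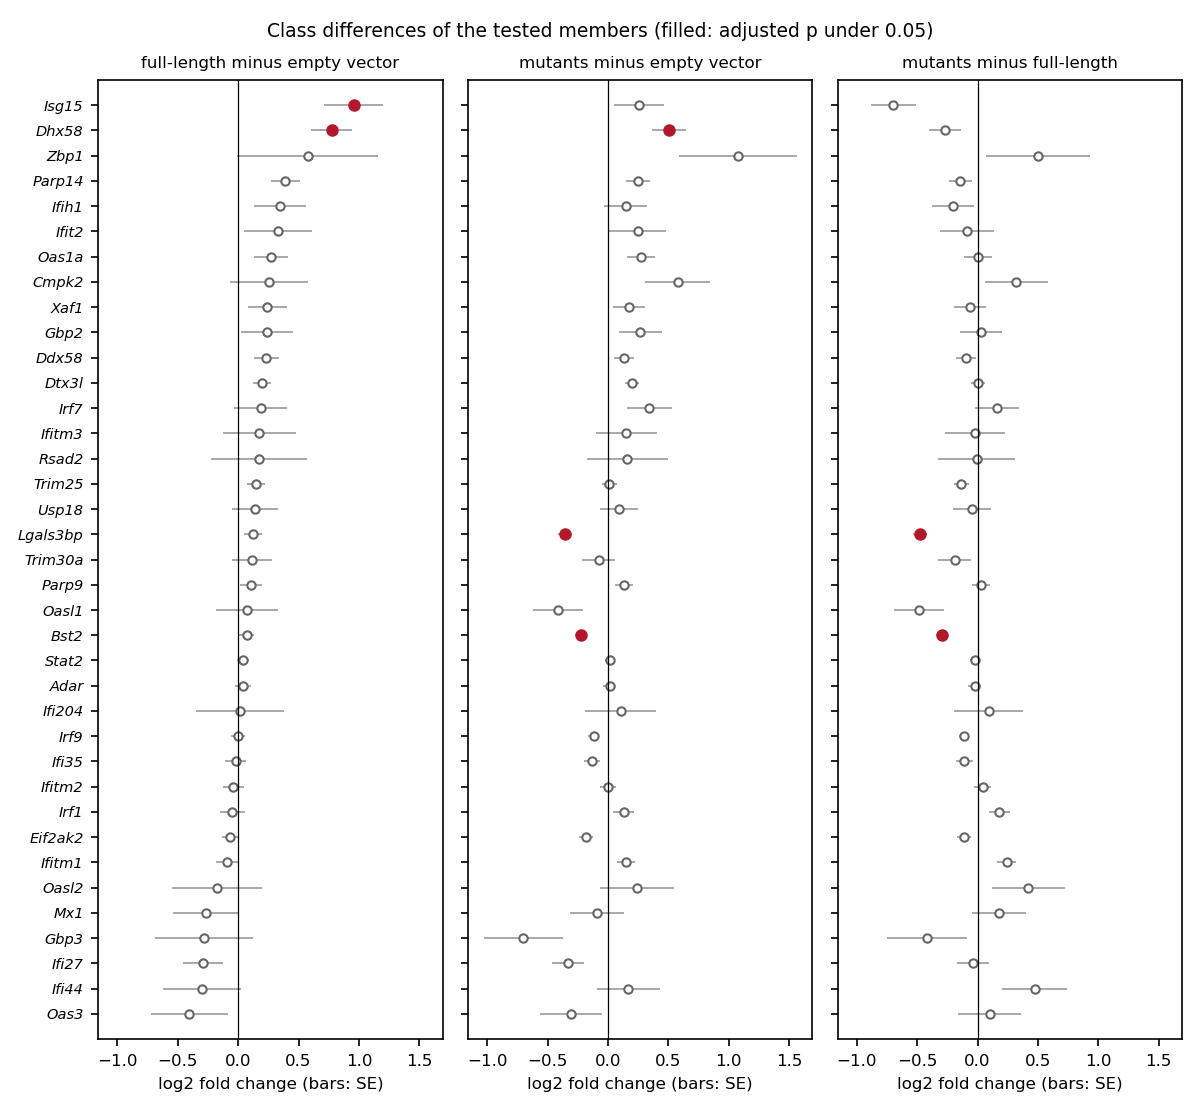
Log2 fold changes with SE bars of the 37 tested members in the 3 class comparisons, in the order of the first, with filled points at an edgeR adjusted p under 0.05. Isg15 and Dhx58 are filled for full-length against empty vector, Dhx58, Lgals3bp and Bst2 for mutants against empty vector, and Lgals3bp and Bst2 for mutants against full-length.

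Some single markers of cell types were called between classes, while most tested genes of each marker list were not. The monocyte and macrophage markers summed to between 105.5 and 118.7 TPM with the empty vector, between 99.15 and 110.4 TPM with full-length ASXL2 and between 68.54 and 93.52 TPM in the mutants. Of this list, 11 of 16 genes were tested. F13a1 and Cd14 rose with full-length ASXL2 (18.2%, against 5.07% of all genes tested), and Ccr2 fell in the mutants (9.09%, against 10.8%). In each of these comparisons 5 of the 11 had a log2 fold change above 0 and 6 below. Csf1r, which defines the lineage, did not exceed 0.0998 TPM, and C1qa and C1qb were under 0.1 TPM in every library. Of 9 tested genes of the dendritic cell list, Tcf4 rose under both kinds of construct and Bcl11a in the mutants (11.1% and 22.2%, against 5.07% and 10.8% of all genes tested). Log2 fold changes lay above 0 in 5 and below in 4 with full-length ASXL2, and in 3 and 6 in the mutants. Klf1, Epor and Cd79b, markers of erythroid and B lineage cells, rose under both kinds of construct. Gp9 rose with full-length ASXL2 and Hdc in the mutants, where Mmp8 fell. With full-length ASXL2, 33.3% of the tested erythroid and megakaryocyte markers and 16.7% of the lymphoid markers were called, against 5.07% of all genes. In the mutants these shares were 22.2% and 16.7%, against 10.8%. Hdc was 6.25% of the tested mast cell and basophil markers, and Mmp8 was 20.0% of the tested neutrophil markers. The lists of the genes that rose did not all move with them. Of 6 tested lymphoid markers, 1 had a log2 fold change above 0 and 5 below under full-length ASXL2. The mutants had 3 above and 3 below. Of 9 tested erythroid and megakaryocyte markers, 5 lay above 0 and 4 below under full-length ASXL2. For the mutants these numbers were 7 and 2. The part of these cells in the differences of Lgals3bp, Bst2, Isg15 and Dhx58 was not tested.

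The batch was the larger source of variation in the members. Batch took a median of 41.3% of the variance of log2 CPM over the 37 genes, class 17.9% and the rest 25.4%. Batch took over 50% in 16 genes and class in 3, which were Dhx58 (79.9%), Isg15 (70.5%) and Irf9 (66.6%). Variance shares were taken for the members only, so whether they differ from those of all genes was not tested. Between batches, 7 members were higher in batch 2 and 12 lower, 51.4% of the 37, against 52.4% of all genes tested (26.6% higher and 25.9% lower). This share is near the background. The split depended on the scale. Limma on log2(TPM + 1) gave 2 higher and 18 lower among the members, and 1139 higher and 6063 lower among all genes, whose median moved to -0.11.

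Of the 4 tested transcription factors, Stat2, Irf7 and Irf1 were lower in batch 2. Stat2 ranged from 71.9 to 74.9 CPM in batch 1 and from 55.0 to 57.6 CPM in batch 2, with no overlap and 98.6% of its variance between batches. Its log2 fold change was -0.39 ± 0.031 (SE, edgeR adjusted p = 9.08e-06). Irf7 ranged from 2.22 to 3.74 CPM in batch 1 and from 1.45 to 2.00 CPM in batch 2, and Irf1 from 34.6 to 46.7 CPM and from 24.9 to 30.5 CPM. Both were lower in every library of batch 2, by -0.91 ± 0.14 and -0.52 ± 0.066 on the log2 scale (SE). Irf9, which joins Stat2 in the same complex, did not pass (-0.046 ± 0.035, SE).

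Of the effectors, Oas3, an oligoadenylate synthetase that primes RNA decay, ranged from 0.920 to 1.28 CPM in batch 1 and from 0.343 to 0.701 CPM in batch 2. Its log2 fold change was -1.17 ± 0.21 (SE, edgeR adjusted p = 0.000788). Oasl2 and the DNA sensor Ifi204 stood at -1.06 ± 0.23 each (SE). Ifi204 did not overlap between batches, whereas the Oasl2 library of the empty vector in batch 2, at 0.759 CPM, lay above that of batch 1, at 0.753 CPM. Parp14, Dtx3l, Parp9, Gbp2, Ifi44 and Xaf1 were also lower in batch 2, at log2 fold changes from -0.59 to -0.205. Dtx3l and Parp9 overlap on opposite strands, and no strand setting is stated, so their reads cannot be told apart there.

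In the other direction, Bst2 (0.51 ± 0.037, SE) and Eif2ak2 (0.38 ± 0.045, SE) were higher in every library of batch 2 than in any of batch 1. Lgals3bp (0.42 ± 0.045, SE) was also called higher, as were Ifitm2, Ifitm1, Ifi35 and Zbp1. Of these 7, Bst2 and Lgals3bp passed with limma on log2(TPM + 1) and the other 5 did not. The dendritic cell markers summed to between 5.667 and 8.182 TPM in batch 1 and between 2.576 and 4.495 TPM in batch 2. Of the 9 tested, 7 were lower in batch 2 and 1 was higher, against 25.9% lower and 26.6% higher among all genes, and Klk1 and Cd209a were at 0 in every library. Lower in batch 2 were also 3 of 3 tested eosinophil markers, 4 of 6 lymphoid markers and 3 of 9 erythroid and megakaryocyte markers. The 33.3% of the last list is near the share of all genes. Other lists differed. Of 16 mast cell and basophil markers 7 were higher and 2 lower, and of 11 monocyte and macrophage markers 2 were higher and 1 lower. Of 3 stromal and endothelial markers 1 was higher, and none of 5 neutrophil markers was called. The part of such cells in the batch difference of the members was not tested.

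**Figure D4:**
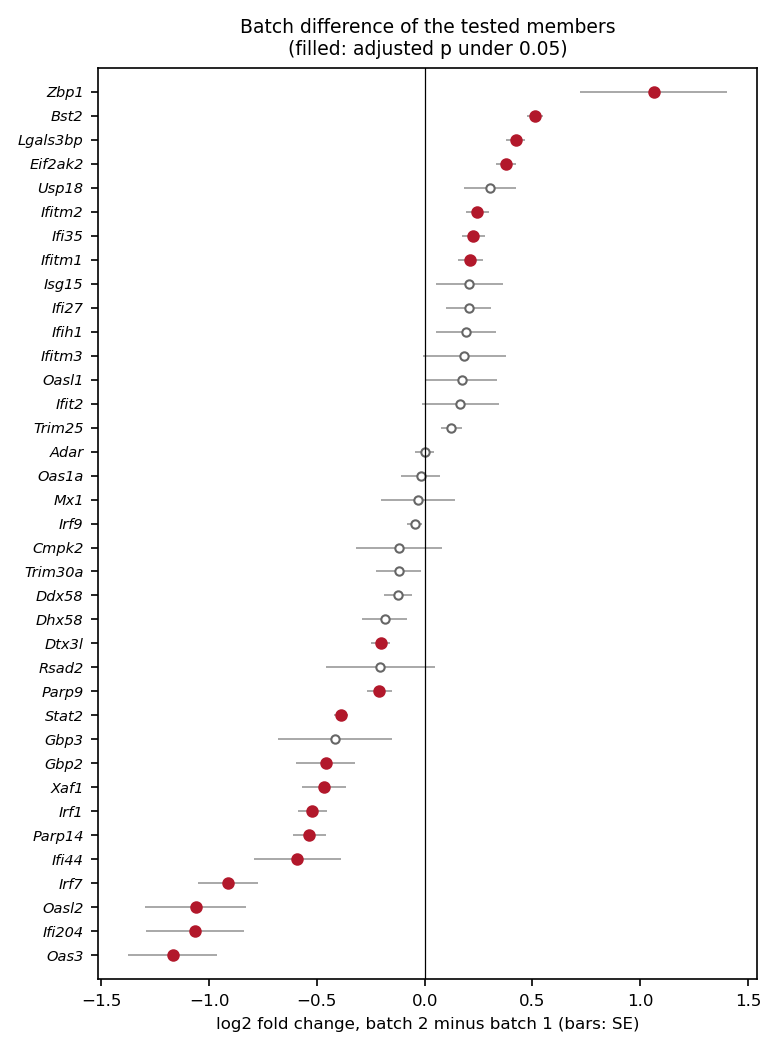
Log2 fold changes with SE bars of batch 2 against batch 1 for the 37 tested members, with filled points at an edgeR adjusted p under 0.05. Filled points are 7 on the higher side, led by Zbp1 and Bst2, and 12 on the lower side, ending with Oas3.

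Whether the constructs acted alike in both batches was tested as an interaction. No member passed with edgeR, and no gene of all 17810 was called (0.0%). An unadjusted edgeR p under 0.05 was found for 9 of the 37 members, a larger share than the 1329 of the 17810 genes tested. The smallest edgeR adjusted p among the members was 0.372, for Rsad2, which stood at 0.866 CPM with the empty vector and from 1.54 to 2.46 CPM with a construct in batch 1. In batch 2 the empty vector held 1.80 CPM of Rsad2 and the constructs from 1.13 to 1.53 CPM. Gbp2, a guanylate-binding GTPase, stood at 7.57 CPM with the empty vector and from 11.1 to 13.1 CPM with a construct in batch 1. In batch 2 it stood at 8.58 CPM and from 6.58 to 9.01 CPM. With 1 empty vector library in each batch, these differences rest on single libraries. With mutant numbers from the labels and batches from the deposited names, Mutant1 occurs only in batch 1 and Mutant3 only in batch 2. The batches in the labels place every mutant in both batches. The mix of constructs may thus differ between batches, but the 2 sources do not give the same mix. Asxl2 averaged 1523.5 CPM in the mutants of batch 1 and 878.5 CPM in those of batch 2, and stood at 1384 and 991.9 CPM with full-length ASXL2. The part of either in these differences was not tested.

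The rest of the pathway was read from 118 further genes, of which 97 were tested. None of the 10 interferon genes passed the filter, and 8 of them, among them Ifnb1 and Ifng, were at 0 in every library. The receptor chains Ifnar1 (15.2 to 20.5 TPM) and Ifnar2 (40.1 to 51.6 TPM) and the kinases Jak1 (67.5 to 96.0 TPM) and Tyk2 (27.0 to 41.1 TPM) were present in every library, and none of them was called between classes. Of the 5 tested receptor genes, Il10rb rose with full-length ASXL2 (0.38 ± 0.079, SE) and in the mutants (0.37 ± 0.066, SE), and Ifngr1 rose in the mutants (0.26 ± 0.064, SE). Of 12 kinases, STATs and feedback genes, the phosphatase Ptpn1 alone was called, at 0.26 ± 0.056 and 0.16 ± 0.046 (SE). Of 13 sensing genes, the factor Irf5 rose and Tmem173, the STING adaptor, fell in both comparisons. Irf5 stood at 3.33 and 6.73 CPM with the empty vector and at 9.76 and 17.0 CPM with full-length ASXL2. The mutants held 8.80, 11.94 and 11.96 CPM of Irf5 in batch 1 and 14.2, 15.6 and 15.4 CPM in batch 2. Its log2 fold changes were 1.42 ± 0.18 (SE, edgeR adjusted p = 0.00167) and 1.41 ± 0.16 (SE, edgeR adjusted p = 0.000501).

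In all, 11 of the 97 rose and 1 fell with full-length ASXL2 (12.4%, against 5.07% of all genes tested), and 14 rose and 5 fell in the mutants (19.6%, against 10.8%). Among 24 tested genes of interferon gamma responsive GTPases and antigen processing, Psmb9 and Psmb8, subunits of the immunoproteasome, and the peptide transporters Tap1 and Tap2 rose with full-length ASXL2. Psmb9 stood at 26.0 and 26.3 CPM with the empty vector, at 37.8 and 46.3 CPM with full-length ASXL2 and from 30.0 to 38.0 CPM in the mutants. Its log2 fold changes were 0.68 ± 0.075 (SE, edgeR adjusted p = 0.000771) and 0.37 ± 0.063 (SE, edgeR adjusted p = 0.00449). Psmb8 also rose in the mutants, and B2m, the light chain of MHC class I, fell there (-0.25 ± 0.061, SE). Tap1 was the only pathway gene called between mutants and full-length ASXL2, at -0.32 ± 0.051 (SE, edgeR adjusted p = 0.0330). Among 43 other response genes, 4 rose with full-length ASXL2, which were Parp12, Samhd1, Sp100 and Ube2l6. In the mutants 8 rose, among them Parp12, Ddx60 and Oas1c, and 3 fell, which were Slfn2, Ly6e and Apol9b. Without the batch block 0 of the 97 were called for full-length ASXL2 and 1, Parp12, for the mutants, each against the empty vector. Left out in turn, empty vector replicate 1 gave 5 and 6 calls in the 2 comparisons, and full-length replicate 2 gave 3 and 19. Limma on log2(TPM + 1) gave 3 and 4 calls, the fold threshold of 1.2 gave 3 and 2, and the libraries whose name matches their label gave 11 and 4.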

How the data were processed

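PolyA RNA was measured in 10 libraries. The authors deposited estimated counts and TPM per transcript, per the file headers, and the submitters' processing notes name kallisto, DESeq2 and mm10 without roles or versions. The sources used here give no trimming, strand setting or transcript index. Kallisto divides reads among transcripts that match them, so near-identical genes have uncertain values.

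Transcripts were summed per gene through GENCODE M21 (GRCm38), which matched 114200 of 115088 (99.23%) and between 99.34 and 99.56% of counts, and 183 transcripts belong to the members. Summed estimated counts were rounded. Between 15624 and 17240 genes reached 10 counts in each library, and counting error is large below that. The test was edgeR 4.0.16 in R 4.3.3 (robust quasi-likelihood, TMM, default filter of 10 counts with a smallest class of 2), in 1 fit with 3 classes and a block for the batch in the deposited names. The interaction was fitted as construct (8 libraries) against empty vector. Variance shares used log2(CPM + 0.1). P-values were adjusted by Benjamini-Hochberg.

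Pairing rests on the batch that the labels and the deposited names give each library. Deviations of same-batch libraries from their class means correlated at 0.76, 0.749 and 0.806 between classes by the deposited names, and at 0.76, 0.593 and 0.72 by label. Alternatives were no block, the label's batch, DESeq2 1.42.0, its size factors, other filters, limma 3.58.1 on TPM, fewer libraries and a fold threshold of 1.2. Scripts were tested on simulated data. Tables and figures used matplotlib 3.10.9, numpy 2.4.6 and pandas 2.3.3 under Python 3.11.15.

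The members, pathway lists and marker lists were chosen with earlier results of these data known. By rule any member could be named. Values in every library were given for those called between classes, and values in short for the 5 highest by TPM and those called between batches, and up to 4 called genes of each pathway list with the smallest p. Ly6e and Apol9b were added after their values were seen, to complete a count. Single mutants and the unmatched transcripts were left out. The values of 1 pathway gene are not reported here.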

Additional observations from a re-analysis of the deposited data

How the results depend on the processing

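Without the replicate block, or with the replicate block by the label's batch, 0 members were called in each class comparison, and the label's batch gave 0 calls between batches against 19. When full-length ASXL2 was set against the empty vector, 0 members were called, against 2, with limma on log2(TPM + 1) or log2(TPM + 0.1), with only the libraries whose name matches their label, with a fold threshold of 1.2 and with only the 2 classes compared. For the mutants against the empty vector the count of 3 became 5 with DESeq2, 1 with limma on either TPM scale, 1 with matching names and 0 with the fold threshold. For the mutants against full-length ASXL2 the count of 2 became 1 with limma on either TPM scale, 0 with matching names and 0 with the fold threshold. Between batches matching names gave 12 and the fold threshold 11, beside 5268 and 3526 calls over all genes. Leaving out 1 library at a time gave 0 to 3, 0 to 8, 0 to 2 and 17 to 21 calls in these comparisons, and 0 to 0 for the interaction. Where 1 library of a class was left, it was assumed to vary like the others. The largest value for the mutants against the empty vector came from leaving out empty vector replicate 2, which leaves 1 empty vector library. The interaction was not run without the block, with the label's batch, DESeq2 or TPM, and could not be fitted without either empty vector library. No called value changed sign, but without full-length replicate 1 the calls for full-length ASXL2 went from 2 higher to 1 lower. With DESeq2 the first and the third class comparison had 3 calls each. The cause of lost and added calls was not tested. Over all genes, 903, 1925 and 71 were called in the class comparisons, against 134, 311 and 0 without the block, 1517, 2679 and 499 with DESeq2 and 385, 575 and 20 with the fold threshold. Of the members averaging under 1 CPM none was called between classes, and small differences may not be detectable there.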

Other observations

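Outside the 44 genes, the highest mean levels among the 118 further pathway genes were those of Ly6e (1266 TPM), B2m (1087 TPM), Lgals9 (365 TPM) and Socs1 (217 TPM), which encodes a feedback inhibitor of JAK kinases. The guanylate-binding genes outside the members, GTPases best known from the interferon gamma response, were picked out after their values were seen. Of the 7 that were tested, none passed with full-length ASXL2 against the empty vector. Gbp9 stood at a log2 fold change of 1.78 ± 0.41 (SE, edgeR adjusted p = 0.0527) and Gbp4 at 1.71 ± 0.40 (SE, edgeR adjusted p = 0.0612). Gbp6, Gbp8 and Gbp10 stood at 1.70 ± 0.46, 1.57 ± 0.50 and 1.68 ± 0.80 (SE), Gbp7 at 0.12 ± 0.060 (SE) and Gbp5 at -0.0030 ± 0.25 (SE). These genes form a cluster of similar copies, so how their reads are divided is uncertain.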
